A study of Mus musculus with 6 samples.

Results

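Ncam1 encodes the neural cell adhesion molecule, and St8sia2 and St8sia4 encode the enzymes that attach polysialic acid to it. These 3 genes were measured by 11 probe sets on 6 Affymetrix Mouse 430 2.0 arrays, which held 18193 genes with a probe set of 1 gene symbol. The members were every probe set whose only annotated symbol was 1 of the 3 (7 for Ncam1, 2 for St8sia2 and 2 for St8sia4), and the set was picked on the large Ncam1 difference measured on these arrays, so its values are given as a description with no test. Of the 11 probe sets, 8 exceeded an intensity of 37.2 on at least 1 array (5 for Ncam1, 2 for St8sia2 and 1 for St8sia4). The limit was set at the 40th percentile over the 6 arrays together. All 3 genes were among the 14755 genes whose probe set of highest mean exceeded it on at least 1 array.

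All arrays came from A2.Snail, a mouse embryonic stem cell (ESC) line in which doxycycline (dox) induces Snail, a zinc-finger repressor that drives epithelial-to-mesenchymal transition (EMT). Embryoid bodies of this line were differentiated in 10% FCS with Dickkopf (DKK), an inhibitor of Wnt signalling, in every culture. In DKK + dox cultures 250 ng/mL dox was added on day 2, and RNA was taken 6, 12 and 24 hours later, whereas DKK cultures received no dox and were sampled at the same hours. Each condition and time had 1 array, so no difference at a single time has a replicate check, and the line was the only one on these arrays. No DKK + dox culture without the Snail transgene was analysed here, so effects of dox and of Snail cannot be told apart. Because these were bulk samples, fewer cells of a type and less RNA per cell cannot be told apart either.

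NCAM is a cell surface protein of the immunoglobulin superfamily that binds NCAM on the neighbouring cell and is known from neurons, but also from early mesoderm and its derivatives. Alternative splicing gives membrane-spanning and lipid-anchored forms. ST8SIA2 and ST8SIA4 are Golgi enzymes that build long chains of alpha-2,8-linked sialic acid on the N-glycans of NCAM, and the bulky, charged chains weaken its adhesion. In EMT, a switch of adhesion molecules that includes loss of E-cadherin and gain of NCAM is well described in cultured epithelial cells.

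The arrays were close to each other in overall signal, with medians of 53.6 to 63.7 and 37.5 to 41.3% of values at or under the limit. Across the 14755 genes the median difference, DKK + dox minus DKK, was −0.04, 0.03 and 0.02 at 6, 12 and 24 hours on the scale used throughout, log2(intensity + 20.6), where the offset damps the differences of dim probe sets. Cdh1, which encodes E-cadherin, was lower in DKK + dox at all times (log2 differences of −0.37, −1.05 and −1.02). The Snai1 probe set never exceeded 32.9 on any array and so does not check the induction of the transgene.

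The brightest Ncam1 probe set, 1426865_a_at, stood at 267, 571 and 989.8 intensity units after 6, 12 and 24 hours in DKK + dox cultures, against 205.5, 102 and 63.0 in DKK cultures. The 2 arms moved apart: the DKK + dox value was higher at each later time and the DKK value was lower at each later time. The DKK + dox value was 1.3 times the DKK value at 6 hours, 5.6 times at 12 hours and 15.7 times at 24 hours, or log2 differences of 0.35, 2.27 and 3.60. This difference was number 560 of the 14755 genes at 6 hours, number 8 at 12 hours and number 3 at 24 hours, counted from the largest increase.

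Both sides of this difference can be followed within an arm. Between 6 and 24 hours Ncam1 changed by 1.81 (log2) in DKK + dox cultures and by −1.44 in DKK cultures, so that the 24 hour level was 3.7 times and 0.307 times that at 6 hours. In DKK + dox cultures 5.94% of the 14755 genes gained 2-fold or more over this interval and 3.72% lost as much, against 2.51% and 4.26% in DKK cultures. In the DKK + dox arm the step was 1.04 between 6 and 12 hours and 0.77 between 12 and 24 hours, and in the DKK arm the steps were −0.88 and −0.55. The larger step thus lay in the earlier interval in both arms.

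**Figure D1:**
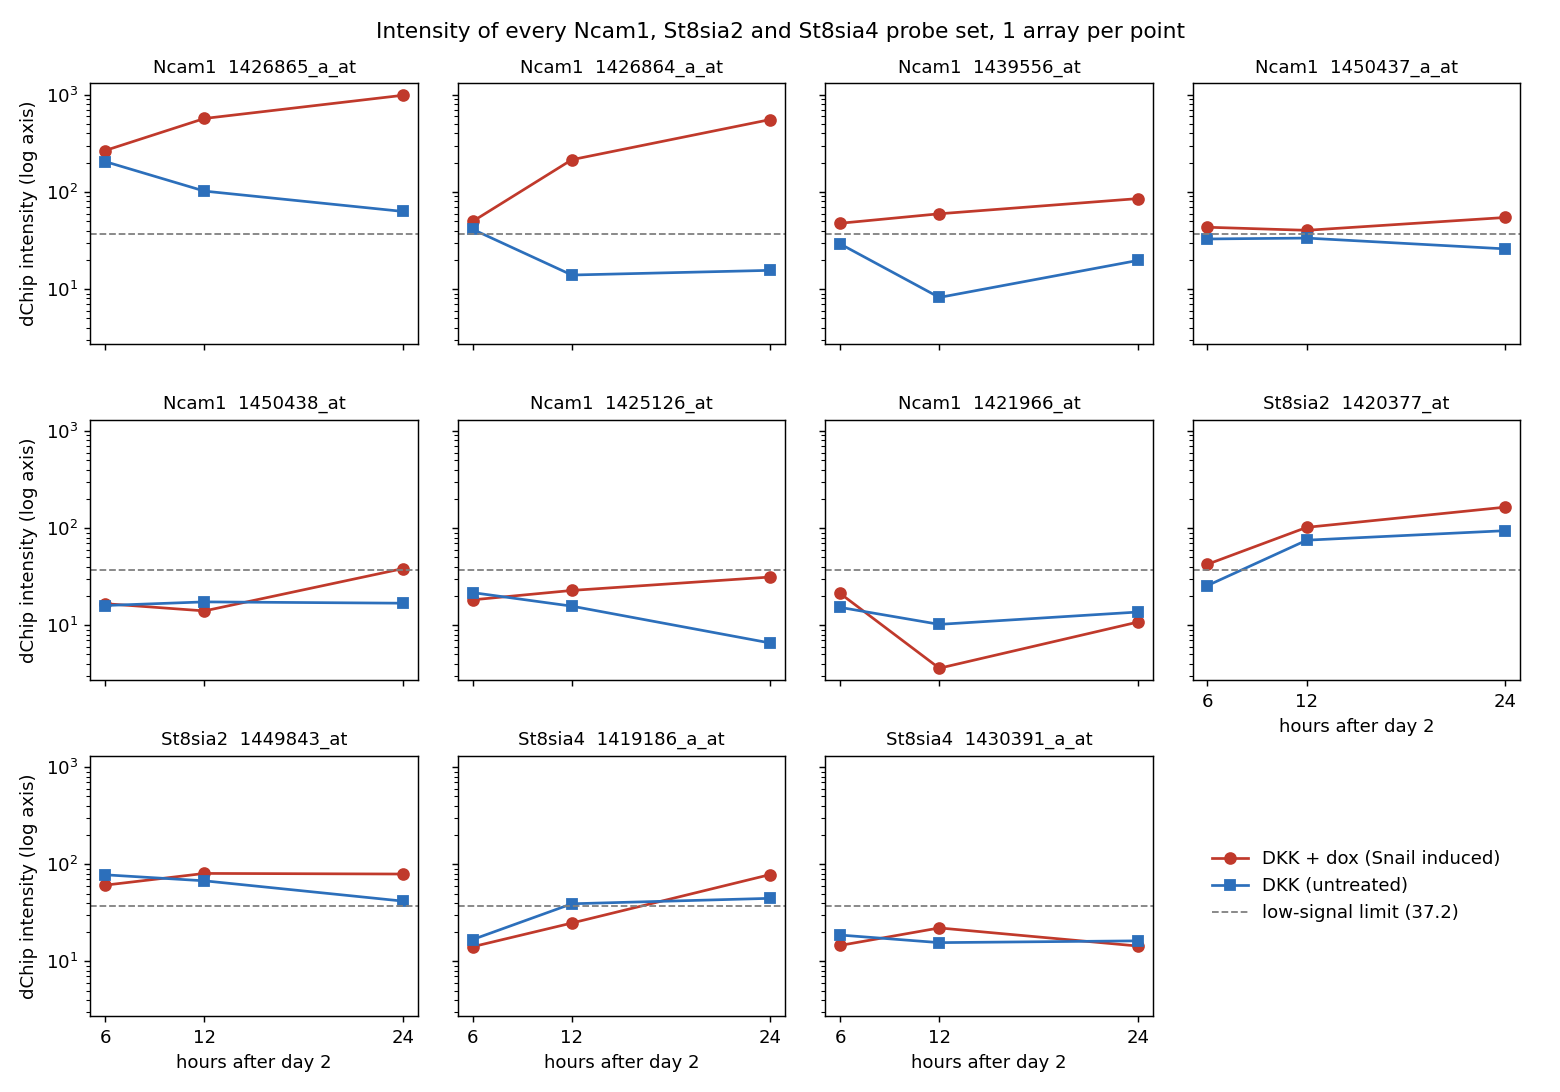
Intensity (log axis) of the Ncam1, St8sia2 and St8sia4 probe sets (all 11), against hours after dox addition, 1 point per array, with DKK + dox as red circles, DKK as blue squares and the limit of 37.2 as a dashed line. The brightest Ncam1 probe set reached 989.8 in DKK + dox and 63.0 in DKK at 24 hours, whereas both arms of St8sia2 probe set 1420377_at were higher at 24 than at 6 hours.

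The other Ncam1 probe sets differed in how far they followed this pattern. Probe set 1426864_a_at, designed on the same sequence record as 1426865_a_at, gave 49.7, 215 and 557 in DKK + dox cultures, against 41.3, 14.0 and 15.6 in DKK cultures. The last pair of DKK values lay under the limit, so DKK + dox was at least 5.78-fold higher at 12 hours and at least 15-fold higher at 24 hours, with the limit standing in for the dimmer value. Its log2 differences on the offset scale were 0.19, 2.77 and 4.0, and 2 of 26362 probe sets above the limit had a larger increase at 12 hours and 3 at 24 hours.

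Probe set 1439556_at was dim, with 47.6, 59.6 and 85.4 in DKK + dox cultures, against 29.2, 8.20 and 19.7 in DKK cultures. All its DKK values were under the limit, and DKK + dox was at least 1.28-fold, 1.6-fold and 2.3-fold higher at 6, 12 and 24 hours. Probe set 1450437_a_at gave 43.3, 40.3 and 54.6 in DKK + dox cultures, against 32.8, 33.5 and 25.9 in DKK cultures, with DKK + dox at least 1.47-fold higher at the last time. Probe set 1450438_at was above the limit on the DKK + dox array at 24 hours only (38.3), against 16.9 in DKK.

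The remaining pair of Ncam1 probe sets never exceeded the limit. Probe set 1425126_at had 18.3, 22.8 and 31.4 in DKK + dox cultures, against 21.7, 15.7 and 6.56 in DKK cultures. Probe set 1421966_at had 21.3, 3.61 and 10.8 in DKK + dox cultures, against 15.3, 10.2 and 13.7 in DKK cultures, and showed no such spread. The deposited annotation does not place the probe sets within the transcripts, so which spliced form each reads was not analysed here.

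Across the 7 Ncam1 probe sets the difference was above 0 in 6 at 6 hours, in 5 at 12 hours and in 6 at 24 hours, a count that takes in pairs with both values under the limit, and 3 were at least 2-fold higher (log2 difference of 1 or more) at 12 hours and at 24 hours. As background, a 2-fold or greater increase was seen in 0.271% of the 14755 genes at 6 hours, in 1.27% at 12 hours and in 3.12% at 24 hours. The genes were picked on this contrast, so nothing follows from these counts. The agreement with the brightest probe set, as Pearson's r over the 6 arrays, was 0.965 for 1426864_a_at, 0.925 for 1439556_at, 0.914 for 1450437_a_at, 0.912 for 1425126_at, 0.577 for 1450438_at and −0.349 for 1421966_at. Each of these r values rests in part on values under the limit, and 1425126_at and 1421966_at had no value above it. Probe sets of 1 gene read the same RNA and are not replicates.

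**Figure D2:**
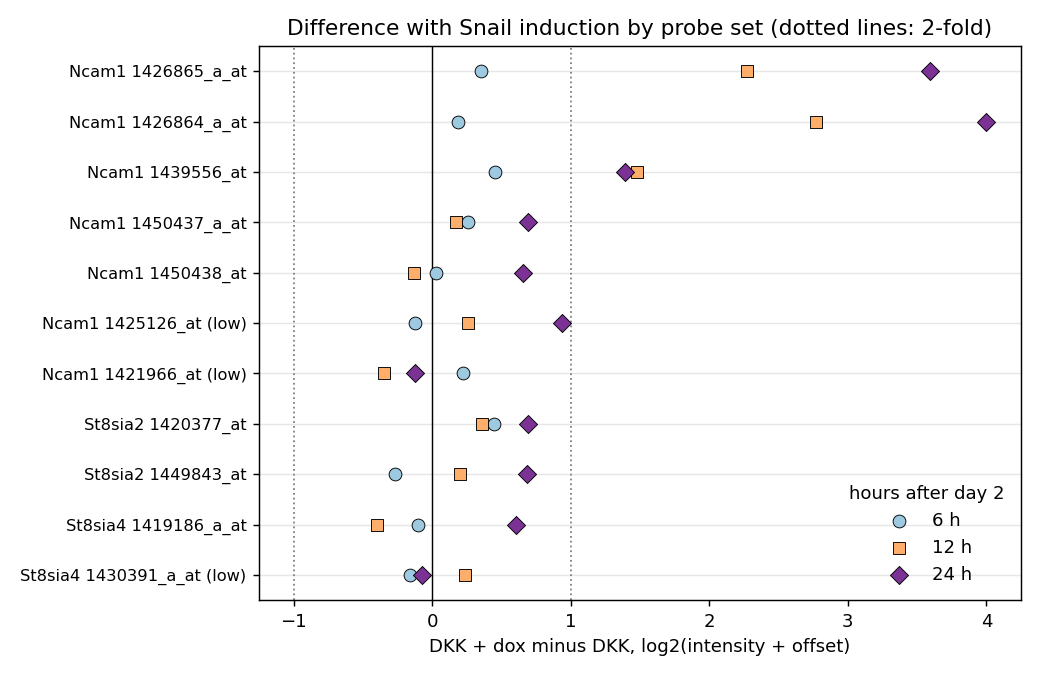
DKK + dox minus DKK for each of the 11 member probe sets at 6, 12 and 24 hours, on the log2(intensity + 20.6) scale, with circles, squares and diamonds for the 3 times, dotted lines at 2-fold and "low" beside probe sets never above the limit. The 24 hour differences of Ncam1 reach 3.60 and 4.0 in the 2 probe sets on the same sequence record, and those of St8sia2 and St8sia4 above the limit lie between 0.60 and 0.69.

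Of the enzymes, St8sia2, the polysialyltransferase best known from the embryonic brain, had its brighter probe set, 1420377_at, at 42.5, 102 and 164.5 in DKK + dox cultures, against 25.6, 75.2 and 94.2 in DKK cultures. Unlike Ncam1, it was higher at each later time in both arms: the change between 6 and 24 hours was 1.55 (log2) in DKK + dox and 1.31 in DKK. DKK + dox was at least 1.14-fold higher at 6 hours, and 1.36 times and 1.75 times the DKK value at 12 and 24 hours. The second probe set, 1449843_at, gave 61.0, 80.6 and 79.5 in DKK + dox cultures, against 78.0, 67.6 and 41.8 in DKK cultures. It gave 0.782 times the DKK value at 6 hours and 1.9 times at 24 hours, and the DKK values of its time course ran opposite to those of 1420377_at, although both probe sets were designed on the same sequence record. The 2 St8sia2 probe sets thus agreed on the side and size of the 24 hour difference (0.69 and 0.68) and disagreed on its side at 6 hours (0.45 and −0.27).

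St8sia4, the other polysialyltransferase and the more widespread one in adult tissue, was read by 1419186_a_at at 14.2, 24.9 and 78.5 in DKK + dox cultures, against 16.8, 39.2 and 44.7 in DKK cultures. At 24 hours both values were above the limit and DKK + dox was 1.76 times DKK (log2 difference of 0.60). At 6 hours both values were under the limit (−0.11 on the offset scale), and at 12 hours the DKK + dox value was (−0.40). Between 12 and 24 hours the gene changed by 1.12 in DKK + dox and by 0.13 in DKK. Its other probe set, 1430391_a_at, stayed between 14.4 and 22.1 in DKK + dox and between 15.6 and 18.7 in DKK, under the limit throughout.

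At 24 hours all 8 member probe sets that passed the limit were higher in DKK + dox, and at both 6 and 12 hours 6 of the 8 had a difference above 0. A probe set that passed only through the arm where it is high had to differ, so this count is no support for a common change. Counted from the largest increase among 14755 genes, St8sia2 was number 988 and St8sia4 number 1271 at 24 hours, while neither reached the 2-fold mark at any time.

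Snail is known to bind the E-box CAGGTG, which reads CACCTG on the other strand. The stretches of 250 bases before the transcription start of the polysialyltransferase genes are shown because they are the sequences in which this motif was sought, on both strands, as 1 motif without overlap with another. The sequences are from RefSeq (GRCm38.p6), each written 5′ to 3′ on the gene's own strand in lower case, with any match to the motif in capitals. St8sia2 lies at chr7:73939119-74013727 (minus strand, window chr7:74013683-74013932) and St8sia4 at chr1:95587682-95667717 (minus strand, window chr1:95667595-95667844). The start sites are those of the RefSeq windows and lie 45 bases (St8sia2) and 123 bases (St8sia4) inside the outer end of the gene, so each window overlaps the gene as printed. The Ncam1 gene lies at chr9:49502129-49799393, but the set of windows used here held none for it, so the motif was not sought before Ncam1.
St8sia2: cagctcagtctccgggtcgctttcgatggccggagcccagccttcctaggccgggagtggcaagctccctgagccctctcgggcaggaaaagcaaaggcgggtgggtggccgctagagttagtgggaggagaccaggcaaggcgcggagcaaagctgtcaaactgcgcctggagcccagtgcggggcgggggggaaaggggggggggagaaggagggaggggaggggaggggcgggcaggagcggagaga
St8sia4: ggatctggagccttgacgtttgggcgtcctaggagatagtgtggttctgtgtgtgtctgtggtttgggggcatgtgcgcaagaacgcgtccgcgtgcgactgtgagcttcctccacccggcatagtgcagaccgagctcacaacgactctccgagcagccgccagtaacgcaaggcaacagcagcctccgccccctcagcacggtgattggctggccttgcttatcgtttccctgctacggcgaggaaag
Neither window held the motif (0 matches each), against 5655 of 32841 promoter windows of this length (17.2%). That says only that these letters are not in these windows.

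Genes whose profile over the 6 arrays was most like that of Ncam1 were taken as the 10 with the highest Pearson's r to 1426865_a_at among the 14755 genes. They were Tspan9 (r = 0.995), Rbms1 (0.994), Pros1 (0.993), Ppp1r18 (0.992), Serping1 (0.992), Fndc3b (0.991), Flrt2 (0.990), Tgfbi (0.989), Nt5c2 (0.988) and Nptn (0.988). All 10 put the arrays in the same order as Ncam1 (Spearman's rho of 1), as did 88 genes in all. The points are 6 arrays that share their cells and scaling, so these values describe the pattern and carry no p.

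The likeness is one of shape and not of size. Tgfbi, an extracellular matrix protein that binds integrins, stood at 1293 in DKK + dox and 51.3 in DKK at 24 hours (log2 difference of 4.19). Tspan9, a tetraspanin, stood at 527 in DKK + dox and 146.4 in DKK (1.71). Nptn, or neuroplastin, another adhesion molecule of the immunoglobulin superfamily, stood at 1523 in DKK + dox and 1130 in DKK (0.42). The differences of the other 7 genes lay between 0.40 (Nt5c2) and 1.48 (Pros1, the anticoagulant protein S). St8sia2 had an r of 0.41 and St8sia4 of 0.218, with 3685 and 5476 genes more like Ncam1 than they were.

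**Figure D3:**
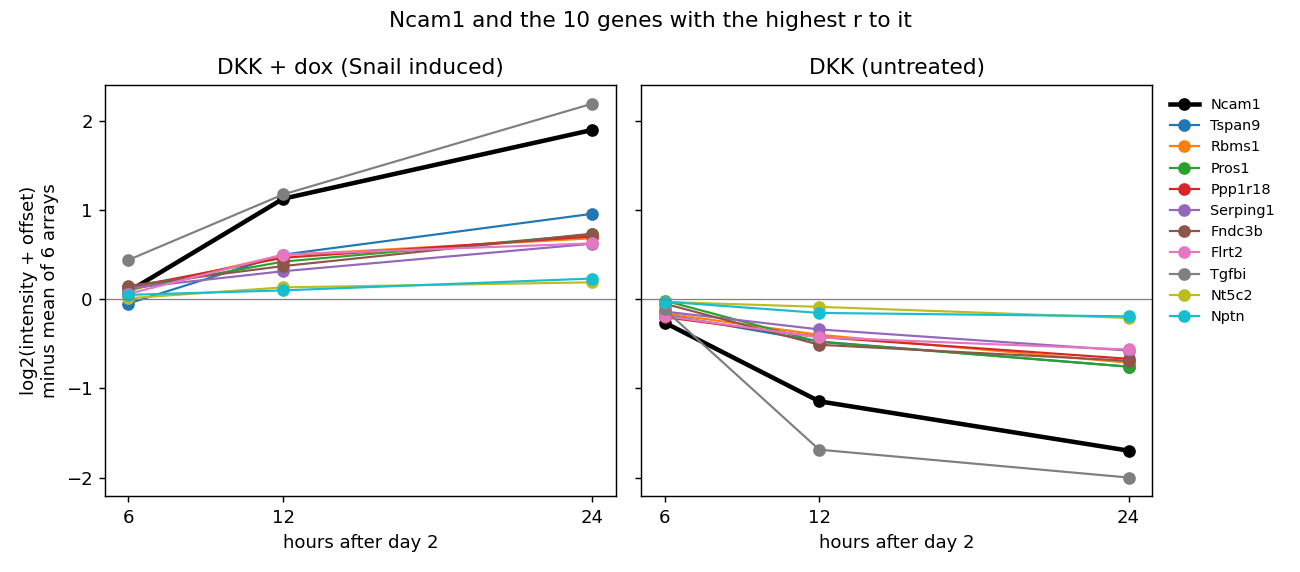
Ncam1 (black, thick line) and the 10 genes with the highest r to it (coloured) against hours after day 2, in DKK + dox (left) and DKK (right), each as log2(intensity + 20.6) minus the gene's mean over the 6 arrays, 1 point per array. All 10 run with Ncam1 (r of 0.988 to 0.995), Tgfbi over a wider range and the others over a narrower one.

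The genes around polysialic acid and NCAM adhesion were set out in 8 lists of 75 genes, of which 67 could be tested, 5 did not exceed the limit (Neu2, Ccr7, Chl1, Cntn4 and Pecam1) and 3 had no probe set of their own here (Neu4, Cadm2 and Ptk2). None of them is a member, and limma tested each for a gap between the arms in proportion to the hours after dox (adjusted p under 0.05 over all 14755 genes). With 1 array per condition and time, that p measures departure from the trend and not the spread between replicate cultures. The fitted value is the log2 difference, DKK + dox minus DKK, that the trend through all 3 times gives at 24 hours. It can differ from the measured 24 hour difference, as for Cmas (fitted −0.75, measured −0.51). Genes said to rise or fall passed the test with a positive or a negative fitted value. These words compare the arms and not the times within an arm. Of the 67, 9 rose (13.4%) and 4 fell (5.97%), against 8.32% and 6.38% of all genes tested. Their median difference at 24 hours was 0.17, against 0.02 for all genes. None of the 13 calls held when the trend was replaced by a constant difference, when time was made linear or when the variance was not tied to intensity, and 5, 8 and 3 of them held without the 6, 12 or 24 hour pair of arrays.

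In the supply of sialic acid (5 genes tested), Cmas alone passed the test and it fell. CMAS activates sialic acid to the CMP-sugar that every sialyltransferase uses. It stood at 1398, 789.9 and 1095 in DKK + dox cultures, against 1574, 1438 and 1569 in DKK cultures, and the fitted value was −0.75 ± 0.19 (SE, limma adjusted p = 0.039). The DKK + dox value was lower at each time, but by most at 12 hours. Without the 6 hour pair of arrays the adjusted p was 0.075. The transporter gene Slc35a1, which carries CMP-sialic acid into the Golgi, did not pass (0.16, 0.51 and 0.37), nor did Gne, Nans or Nanp.

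The largest 24 hour difference in the lists was that of St8sia1, the GD3 synthase, which adds alpha-2,8-linked sialic acid to gangliosides and not to NCAM. Its values were 18.3, 35.2 and 181 in DKK + dox cultures, against 30.7, 16.2 and 16.1 in DKK cultures, so only the DKK + dox array at 24 hours was above the limit, at least 4.88-fold over DKK. The fitted value was 2.03 ± 0.43 (SE, limma adjusted p = 0.0213), and without the 24 hour pair of arrays the adjusted p was 0.703. St8sia3, St8sia5 and St8sia6 did not pass. St8sia1 and Cmas lie on chromosome 6 at 142821541-142989528 and 142756686-142775714, 45.8 kb apart, and a RefSeq window of each before 1 start site is given to compare with those above.
St8sia1: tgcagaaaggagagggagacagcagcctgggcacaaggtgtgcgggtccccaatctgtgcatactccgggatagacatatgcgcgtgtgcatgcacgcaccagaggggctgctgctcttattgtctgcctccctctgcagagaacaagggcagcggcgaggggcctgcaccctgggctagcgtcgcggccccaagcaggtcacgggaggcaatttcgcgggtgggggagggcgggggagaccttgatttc
Cmas: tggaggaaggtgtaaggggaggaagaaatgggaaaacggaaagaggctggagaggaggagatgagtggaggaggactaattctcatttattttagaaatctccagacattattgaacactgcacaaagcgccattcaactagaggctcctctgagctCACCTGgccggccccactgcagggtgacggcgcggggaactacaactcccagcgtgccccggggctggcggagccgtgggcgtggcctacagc
These windows are chr6:142964453-142964702 (minus strand) and chr6:142756436-142756685 (plus strand) in GRCm38.p6. The St8sia1 window belongs to an internal start site, 25.1 kb inside the outer end of the gene, and the window before that outer end was not analysed here. The St8sia1 window held 0 matches to the E-box and the Cmas window held 1, in capitals, which begins 93 bases before the start site. A match is a description of the letters and not evidence of binding.

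Among the 8 sialyltransferases that cap glycans with single alpha-2,3- or alpha-2,6-linked sialic acids, 1 rose and 1 fell. St6gal2 stood at 101, 389.5 and 397 in DKK + dox cultures, against 161, 586 and 615 in DKK cultures, with a fitted value of −0.79 ± 0.20 (SE, limma adjusted p = 0.0383). It was higher at 12 and 24 than at 6 hours in both arms, and lower in DKK + dox by 0.56 to 0.61 (log2) at every time. St6gal1 rose by a fitted 0.48 ± 0.12 (SE, limma adjusted p = 0.0403). None of the 10 genes that build and branch the N-glycan passed the test, with a median difference of 0.47 at 24 hours. B4galt1, a galactosyltransferase, and Mgat5, which opens the branch bearing long antennae, were among those that did not pass. Of 4 sialidases, the enzymes that remove sialic acid, Neu1 and Neu3 could be tested and neither passed. Their median of −0.08 at 24 hours joins opposite sides (−0.48 for Neu1 and 0.33 for Neu3, whose DKK value lay under the limit). Neu1 had differences of −0.34, −0.07 and −0.48. A second Neu1 probe set, 1416831_at, was above the limit on all arrays and had −0.38, −0.69 and −0.72.

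**Figure D4:**
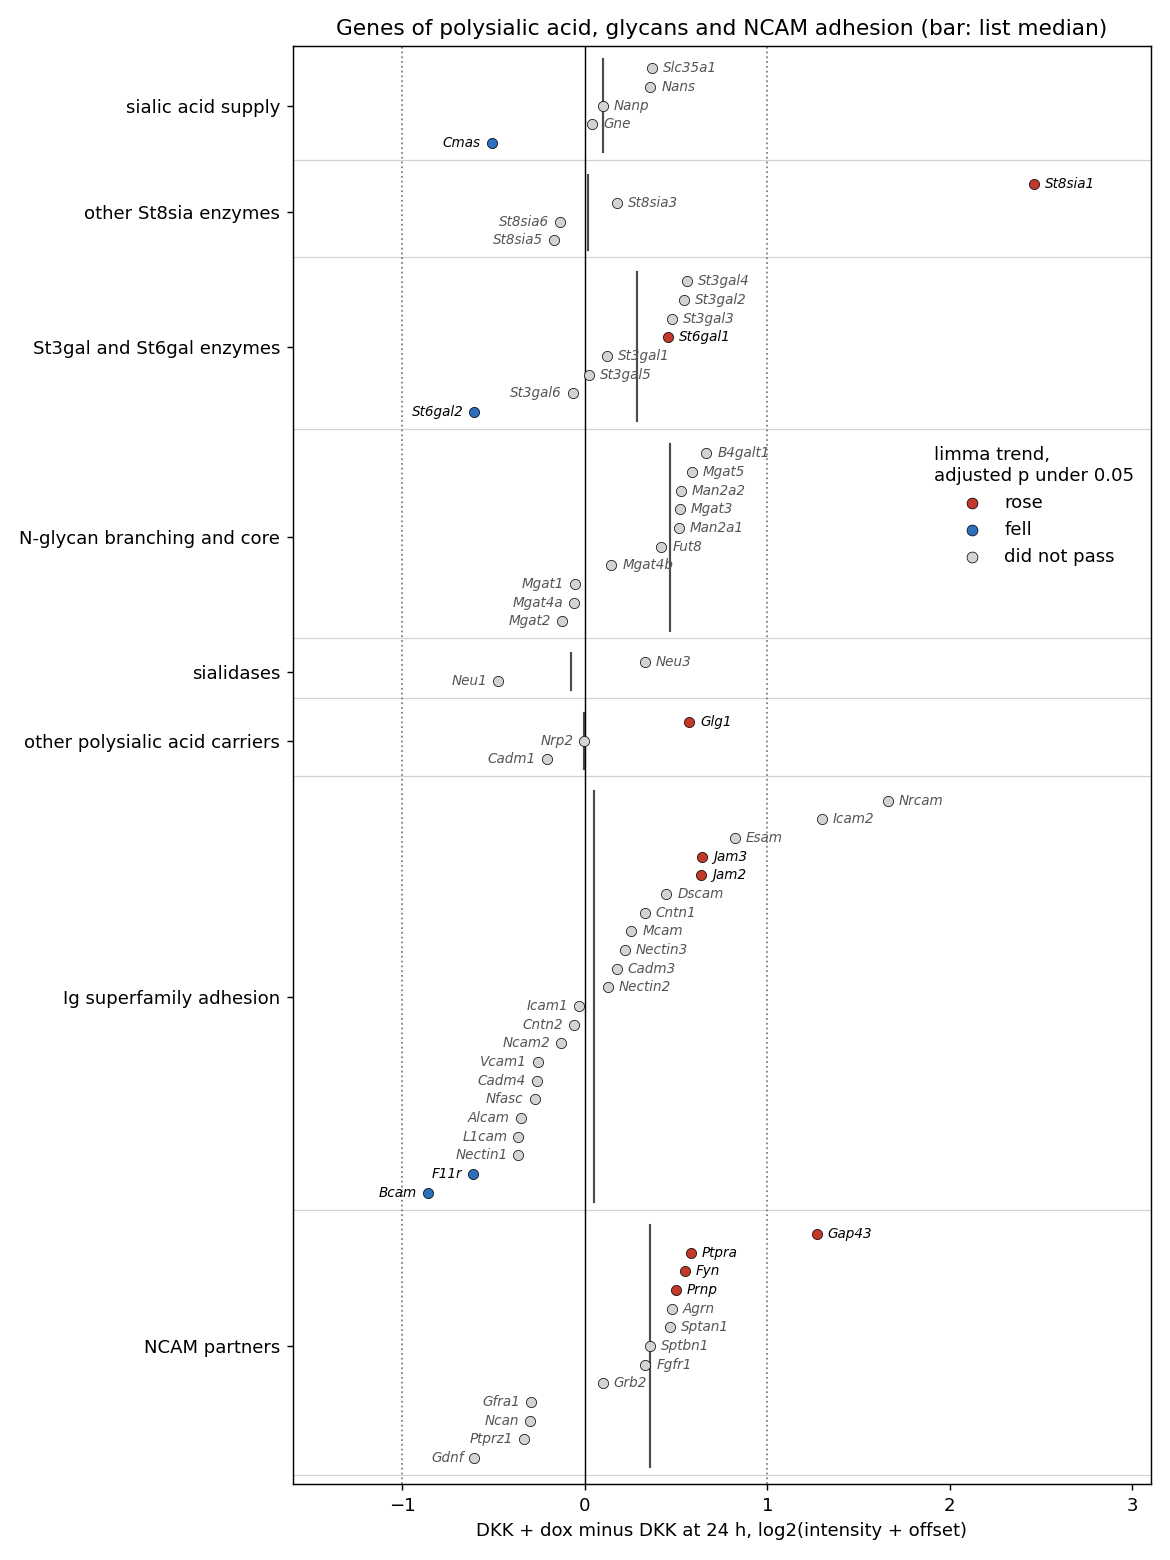
Difference DKK + dox minus DKK at 24 hours on the log2(intensity + 20.6) scale for the 67 tested genes of the 8 lists, 1 row per gene, with a bar at each list's median and dotted lines at 2-fold; red and blue points rose or fell in limma (adjusted p under 0.05) and grey points did not pass. St8sia1 lies farthest to the right at 2.46 and the N-glycan list has the highest median, 0.47, with no gene that passed.

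Of the other proteins that can carry polysialic acid, Glg1, which encodes a Golgi glycoprotein also known as an E-selectin ligand, rose by a fitted 0.52 ± 0.10 (SE, limma adjusted p = 0.0138). Nrp2, a neuropilin, did not pass (0.07, −0.21 and −0.00; its second probe set gave −0.22, 0.45 and 0.75), and neither did Cadm1. In the immunoglobulin superfamily of adhesion molecules 2 of 22 rose (Jam2 and Jam3) and 2 fell (F11r and Bcam), with a median of 0.05. F11r, which encodes the tight junction protein JAM-A, had a fitted value of −0.72 (SE 0.12, limma adjusted p = 0.00907). It was higher at each later time in both arms, with 781.5, 907 and 918 in DKK + dox cultures, against 974, 1313 and 1413 in DKK cultures. Bcam, which encodes a laminin receptor, stood at 141, 72.0 and 59.9 in DKK + dox cultures, against 169, 132 and 126 in DKK cultures, and fell by 0.97 on the log2 scale (SE 0.20, limma adjusted p = 0.0201). Jam2 and Jam3, which encode the junctional molecules JAM-B and JAM-C, rose by fitted values of 0.67 and 0.60 (limma adjusted p = 0.0429 and 0.0395), although a second Jam3 probe set stayed under the limit. Jam2 was lower at each later time in both arms, with 580, 88.6 and 64.4 in DKK + dox cultures, against 519, 61.1 and 34.0 in DKK cultures. Another Jam2 probe set, 1419288_at, was above the limit on all arrays and had differences of −0.37, −0.05 and −0.08. Ncam2, the closest relative of Ncam1, did not pass, with differences of −0.56, −0.20 and −0.13, and neither did L1cam. Only the DKK array at 6 hours (47.8) was above the limit for Ncam2, so the signs at 12 and 24 hours are not a measured direction.

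A pair of adhesion genes had a log2 difference of 1 or more on the offset scale at 24 hours without passing the trend test. Nrcam, the neuronal cell adhesion molecule, had differences of 0.03, −0.52 and 1.66, and Icam2, an integrin ligand of endothelium, had 1.30 at 24 hours. For Icam2 only the DKK + dox array at 24 hours was above the limit (68.95, against 15.8 in DKK), so the size of its fold was not measured. With St8sia1 and Gap43, Nrcam and Icam2 made 4 of the 67 genes, and 0 were at least 2-fold lower on that scale. Of all 14755 genes, 3.12% were at least 2-fold higher at 24 hours. These counts use the brightest probe set of a gene. Dimmer probe sets of some genes that did not pass also had a difference this large at 24 hours. They were those of Cadm3 (1.73 for 1418922_at and 1.41 for 1449272_at, against 0.18 for its brightest), St3gal6 (1.22, against −0.06) and Sptbn1 (1.05, against 0.36). The DKK values of both dimmer Cadm3 probe sets lay under the limit. The share of all genes with a 2-fold or greater decrease was 0.468% at 6 hours, 2.25% at 12 hours and 2.2% at 24 hours.

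Among partners through which NCAM is known to signal or to reach the cytoskeleton, 4 of 13 rose and 0 fell, with a median of 0.36. Gap43, a growth cone protein, had 74.8, 352 and 272 in DKK + dox cultures, against 48.2, 133 and 100.5 in DKK cultures, so DKK + dox was higher at each time, and the fitted value was 1.54 ± 0.25 (SE, limma adjusted p = 0.00932). Ptpra and Fyn, the phosphatase and the Src-family kinase that it activates downstream of NCAM, rose by fitted values of 0.63 and 0.51, and Prnp, the prion protein, rose by 0.48 (limma adjusted p = 0.023, 0.0433 and 0.041). A second Ptpra probe set, 1447467_at, was lower by 0.44 at 24 hours (log2 difference of −0.44). Fgfr1, a receptor that NCAM engages, did not pass (0.09, 0.31 and 0.33).

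Because NCAM marks several cell types, the summed intensity of marker lists is given beside these values, and the part of these cells in the Ncam1 difference was not tested. The early mesoderm list (8 of 10 genes tested) summed to 762, 1154 and 1929 in DKK + dox cultures, against 686, 484 and 508 in DKK cultures, and Kdr, Pdgfra and Isl1 rose while none fell. Kdr (771) and Isl1 (741) made up most of the DKK + dox sum at 24 hours. The other 5 did not pass. At 24 hours Foxf1 (−0.52), Mesp1 (−0.26) and Tbx6 (−0.25) were lower in DKK + dox, and Gata4 (0.38) and Hand1 (0.20) were higher. Msgn1 was under the limit. The DKK values of the called Pdgfra probe set lay under the limit at 12 and 24 hours (23.8 and 18.9). Another Pdgfra probe set, 1421916_at, was above the limit at 6 hours only and was lower there in DKK + dox (74.1, against 93.8 in DKK). Neural markers (10 of 12 tested) summed to 1314, 1964 and 2324 in DKK + dox, against 1431, 2208 and 2242 in DKK, with Tubb3 up, Elavl3 and Sox3 down and Neurog2 under the limit. The parietal endoderm list summed to 4597, 4290 and 6354 in DKK + dox, against 4798, 3832 and 3260 in DKK, and 5 of its 8 genes rose (Sparc, Col4a1, Col4a2, Sox7 and Sox17). Visceral endoderm markers summed to 430 to 1121 in DKK + dox and 450.0 to 1277 in DKK, with 0 of 6 called and Afp and Apob under the limit on all arrays.

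The pluripotency list summed to 25500.0 to 30460.0 in DKK + dox and 29060.0 to 31540.0 in DKK, and 2 of its 7 genes fell (Sox2 and Utf1), while Pou5f1, which encodes Oct4, stood at 5672 to 6675 in DKK + dox and 6046 to 6764 in DKK. Natural killer and lymphoid markers, listed because NCAM marks human natural killer cells, summed to 184 to 240.1 in DKK + dox and 178 to 195 in DKK with none of 3 called, and Ncr1 was under the limit. Feeder fibroblast markers (6 of 8 tested) summed to 1517, 1152 and 1300 in DKK + dox, against 1927, 944 and 1053 in DKK. S100a4, which did not pass, made up most of each sum (769 in DKK + dox and 718 in DKK at 24 hours). Of the listed genes, Col3a1 rose, and Postn and Lum were under the limit. Dcn did not pass, and its probe sets differed in side at 24 hours (−0.55 for the brightest and 1.15 for 1449368_at). Cdh2, which encodes N-cadherin, was higher in DKK + dox at 24 hours by 1.27 and lower at 6 and 12 hours by log2 differences of −0.18 and −0.08, and it did not pass the trend test (limma adjusted p = 0.0633). The Cdh2 adjusted p was 0.0448 after quantile normalization, 0.0217 with centred arrays and 0.0169 without the 12 hour pair, and the fitted value was −0.28 without the 24 hour pair, whereas Cdh1 fell (−1.25 fitted, limma adjusted p = 0.00456).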

How the data were processed

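Total RNA was hybridised to 6 Affymetrix Mouse 430 2.0 arrays. The authors normalised the arrays with dChip and deposited linear intensity values for 45037 probe sets. No source used here gives the dChip version or model. Values at the floor of 1 made up 2.51 to 3.00% of an array.

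The platform annotation named the probe sets (34945 with 1 symbol, 932 with several, 9160 with none), of which 34741 matched GRCm38.p6. The probe set with the highest mean stood for a gene. Genes for which that probe set had no value above 37.2 (3438) were left out. The members and lists were chosen with earlier results of these data known. Named genes were the members, Snai1, Cdh1, Cdh2, up to 6 called genes per list, list genes needed to say what did not pass, and the 10 genes most like Ncam1. Called cell type markers are named beside their list.

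limma 3.58.1 in R 4.3.3 fitted log2(intensity + 20.6) with 3 time blocks and dox in proportion to hours (eBayes with intensity trend, 2 residual and 5.5 prior degrees of freedom, Benjamini-Hochberg adjustment). The code of the fit was run on simulated data whose gaps followed this same trend. That run cannot tell whether the trend holds on these arrays. On the arrays the fit called 1227 genes higher and 941 lower. A fold against a value under 37.2 was taken against 37.2 and is a lower bound. Offsets, scaling, filter, probe set choice, model and time points were varied in turn. Precision is limited by 1 array per condition and time.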

Additional observations from a re-analysis of the deposited data

Results flagged for a closer look

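Several probe sets had differences or time courses with opposite signs, and with 1 array per condition and time none of these was tested. The change between 6 and 24 hours was upward in DKK + dox and downward in DKK for 4 Ncam1 probe sets and 1 of St8sia2, and the DKK + dox change minus the DKK change was 3.25 for 1426865_a_at, 3.81 for 1426864_a_at, 0.94 for 1439556_at, 0.43 for 1450437_a_at and 0.95 for St8sia2 1449843_at (log2). In all but 1426865_a_at and 1449843_at some of these values lay under the limit. The last of these also changed the sign of its DKK + dox minus DKK difference between 6 and 24 hours, and its largest minus its smallest difference was again 0.95. The other sign changes rest in part on values under the limit of 37.2, so neither the sign there nor the exact spread is a measured direction or size. St8sia4 1419186_a_at had a spread of 1.0 between its 12 and 24 hour differences, with the DKK + dox value under the limit at 12 hours and both values under it at 6 hours. Ncam1 1450438_at had a spread of 0.79, with 1 of its 6 values above the limit (DKK + dox at 24 hours). St8sia1 1455695_at had a spread of 2.86 between its 6 and 24 hour differences, also with 1 of 6 values above the limit (DKK + dox at 24 hours).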

How the results depend on the processing

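The hour of sampling is a block in the fit, which pairs the 2 arms by hour. No other pairing was possible because the labels give no replicate numbers. The differences and time courses of Ncam1, St8sia2 and St8sia4 kept their sign under each alternative run for them. Over the 13 called pathway genes and 13 alternatives the call was kept 96 times and lost 73 times, with no change of sign. Of 15 called marker genes (Cdh1 included), 15 lost the call with a constant difference, 11 when time was linear, 11 when the variance had no intensity trend and 10 without the 24 hour pair. The Cdh2 value without the 24 hour pair was −0.28 (limma adjusted p = 0.593). The Ncam1 difference was 1.73 at 12 hours and 2.74 at 24 hours with an offset of 100, and 0.92 and 1.59 with the mean of all 7 probe sets, which takes in the dim ones. The St8sia2 difference at 6 hours was 0.71 with an offset of 1, 0.18 with an offset of 100 and 0.088 with the mean of its probe sets, and with an offset of 100 it was 0.21 at 12 hours and 0.45 at 24 hours. The St8sia4 difference at 24 hours was 0.26 with the mean of its probe sets. With an offset of 1, the change between 6 and 24 hours was 1.93 in DKK + dox and 1.84 in DKK for St8sia2, and 2.39 and 1.36 for St8sia4. With an offset of 100, 5 of the 10 genes most like Ncam1 stayed among the 10.

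Over all genes the trend test called 1227 higher and 941 lower, against 0 and 0 with a constant difference (2927 genes at unadjusted p under 0.05, lowest adjusted p = 0.0516 in limma), 209 and 76 when the variance had no intensity trend, 121 and 80 when time was linear, 793 and 533 without the 6 hour pair, and 229 and 499 without the 24 hour pair, where lower calls outnumbered higher ones. In the pathway lists the 9 higher calls became 4 with the mean of probe sets, 3 without the 6 hour pair, 1 without the 24 hour pair and 0 with a constant difference, linear time or no intensity trend, and the 4 lower calls became 2 without the 6 hour pair and 0 with those 3 models. Genes at least 2-fold higher and lower numbered 40 and 69 (6 hours), 187 and 332 (12 hours), then 461 and 324 (24 hours). With an offset of 1 these were 125 and 268, 442 and 607, and 735 and 632, and with an offset of 100 they were 3 and 5, 53 and 103, and 219 and 103. At 1.5-fold they were 151 and 576, 819 and 1000, and 1326 and 1060.0, and at 3-fold 6 and 11, 42 and 82, and 159 and 67. With the mean of probe sets, 25 were higher at 6 hours, and 121 higher and 220.0 lower at 12 hours. With the limit at the 60th percentile, 17 were higher and 38 lower at 6 hours. The higher share at 6 hours was 36.7%, against 47.9% with quantile normalization (45 and 49 genes) and 50% with centred arrays (48 and 48). The median difference of all genes, −0.037 at 6 hours and 0.017 at 24 hours, was 0.007 and −0.017 with quantile normalization and 0.044 and 0.013 with centred arrays. The cause of these movements was not tested. Values under 37.2 limit the text: where both values of a pair lie under it, the sign of their difference is not a measured direction.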

Other observations

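Nrcam, whose neuronal protein is a relative of NCAM, was read by 4 probe sets. The brightest, 1434709_at, stood at 35.6, 51.7 and 413 in DKK + dox cultures after 6, 12 and 24 hours, against 34.5, 83.3 and 117 in DKK cultures. The next, 1430583_at, stood at 15.9, 21.5 and 115 in DKK + dox cultures, against 15.2, 36.7 and 34.4 in DKK cultures. Both probe sets were higher in DKK + dox at 24 hours. At 12 hours the brightest was lower in DKK + dox, and both values of the other lay under the limit, whereas the brightest Ncam1 probe set was already higher at 12 hours. The other Nrcam probe sets stayed under the limit. These values were singled out after they had been seen.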
